A study of Mus musculus with 6 samples.

Results

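The 10 genes examined here are the BMP ligands Bmp2, Bmp4 and Bmp7, the receptors Bmpr1a and Bmpr2, the inhibitory Smad gene Smad6, and the target genes Id1, Id2, Id3 and Id4. They are a list of named genes, and all 10 were found among the 21959 genes, of 21966 in the deposited table, that had the quality status OK in both conditions. RNA-seq was done on primary cells grown from colon tumors of CDX2P-NLS-Cre;APCΔ/+;ROSA26-PID mice (PID+ cells, 3 samples, mice 4, 7 and 26) and of CDX2P-NLS-Cre;APCΔ/+ mice (PID- cells, 3 samples, mice 1, 2 and 3). Both genotypes carry the Cre transgene and a deleted Apc allele, and the PID+ cells also express PID, a peptide that inhibits the Group I p21-activated kinases, from the Rosa26 locus. The comparison asks how BMP pathway transcripts differ between Apc-deleted tumor cells with and without this inhibitor. Cre is driven by the CDX2 promoter, which restricts recombination mainly to the intestinal epithelium, and the cells were kept as lines in medium with serum. The labels give no age, describe the PID- samples as normal, where the methods describe tumor cells, and number them differently from the PID- cells of the paper. PID itself has no entry in the table, so its expression could not be checked.

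Values are FPKM, fragments per kilobase of transcript scaled to library size, and the table holds a single pooled value per gene and condition. The methods describe the 3 merged read sets of each condition as repeated sequencing runs, whereas the labels name 3 mice. There is therefore no spread between samples, no test and no p-value, and the depth is unknown. Square brackets give the deposited CuffDiff intervals, which cover that program's own error model only. Differences are given as log2((FPKM in PID+ + 1)/(FPKM in PID- + 1)), with negative values lower in PID+ cells, and fold thresholds were applied on that scale. The sum over all genes was 585870 FPKM for PID+ and 545310 FPKM for PID- cells, with 5136 genes at 0 in the former and 5051 in the latter. Gapdh was 1.54-fold higher in PID+ cells, at 2570 against 1666 FPKM, so that scaling both conditions to equal Gapdh placed the median log2 difference of the genes tested at -0.59.

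BMPs are secreted ligands of the TGF-beta superfamily that assemble type I and type II serine/threonine kinase receptors. The receptors phosphorylate Smad proteins, which enter the nucleus with Smad4 and switch on target genes, among them the Id genes, whose products bind E proteins and keep them from DNA. In the intestine, BMP signaling is strongest toward the villus or the surface, favors differentiation and is held low at the crypt base by secreted antagonists from the stroma.

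The cells were checked first against markers of epithelium and of other cell types. Of 8 epithelial markers, 7 were higher in PID+ cells, of which Krt19 turned when Gapdh was set equal, with a summed FPKM of 8809 against 4885.6. The most abundant were the keratin genes Krt18 in PID+ cells, at 2843 FPKM, and Krt19 in PID- cells, at 2073 FPKM, and the adhesion gene Epcam stood at 401 and 124 FPKM. Both conditions thus carried abundant epithelial transcripts, but not those of every epithelial marker. Vil1, a brush border gene, was near 0 in both, at 0.175 and 0.0614 FPKM, and the intestinal transcription factor gene Cdx2 was at 0.542 FPKM in PID+ against 8.04 FPKM in PID- cells.

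Fibroblast markers were lower in PID+ cells, and in both conditions their sum was far below that of the epithelial markers. Of 7 such genes, 6 were lower and 0 higher, with a summed FPKM of 2.92 in PID+ against 33.1 in PID- cells. The collagen gene Col1a2, the most abundant in PID- cells, was at 0.0654 against 11.9 FPKM, and Col1a1, the most abundant in PID+ cells, at 2.32 against 11.9 FPKM. Dcn was listed at 0 in PID+ and at 2.39 FPKM in PID- cells, Thy1 at 0 and 0.377 FPKM, and Lum at 0 in both. Among 4 smooth muscle markers, with sums of 5.58 and 12.8 FPKM, Acta2 was the most abundant, at 4.39 and 9.76 FPKM, and the defining gene Myh11 was near 0, at 0.0544 and 0.0345 FPKM. The 5 leukocyte markers summed to 21.9 and 16.9 FPKM, nearly all of it Cd68 at 21.8 and 16.8 FPKM, an order that turned with Gapdh set equal, while Cd3e was at 0 in both conditions and Ptprc at 0.0264 and 0.00811 FPKM. The 4 endothelial markers summed to 3.66 and 1.12 FPKM, mostly Kdr at 3.33 and 1.01 FPKM, and the defining marker Pecam1 was near 0, at 0.096 and 0.0931 FPKM. In bulk samples such as these, fewer cells of a type and less RNA per cell cannot be told apart. The paper describes its PID- lines as fibroblast-like in shape and its PID+ lines as epithelial. It also reports more Fibronectin and N-Cadherin protein in PID- cells. Whether the fibroblast marker transcripts came from the tumor cells themselves or from other cells was not tested.

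Across the 10 genes, 4 were higher and 6 lower in PID+ cells, with a median log2 difference of -0.59. The same median over the 11035 genes with at least 2 FPKM in either condition was -0.01, with 5446 higher and 5589 lower. Lower levels were found for the ligands Bmp2 and Bmp4, the receptor Bmpr2, Smad6, Id1 and Id3, and higher levels for Bmp7, Bmpr1a, Id2 and Id4. Setting Gapdh equal between the conditions turned the direction of Bmpr1a and Id2, and the other 8 kept theirs under every alternative that gave a log2 value for them, 5 for Bmp7, Smad6 and Id4 and 6 for the others. At least 2-fold lower were 3 genes, Bmp2, Bmp4 and Id3, against 7.05% of the 11035 genes, and at least 2-fold higher was 1, Id4, against 6.14%. At the 3-fold threshold, 1 gene, Bmp2, was lower, against 3.42% of all genes tested, and 0 were higher, against 2.08%. Bmp2 was also the 1 gene of the 10 whose intervals did not overlap, being lower in PID+ cells, which held for 1.07% of the genes tested, and 0 of the 10 had intervals apart in the other direction, against 0.362%. With 0.1 FPKM added in place of 1, Id4 was at 2.57 and passed 3-fold as well, against 3.23% of all genes tested. In the lower direction 2 genes passed 3-fold at that setting, against 4.59%. With Gapdh set equal 3 were at least 3-fold lower, against 6.5%. The median of the 10 was then -1.13, and that of all genes tested -0.59. Bmp2 had the largest log2 difference of the 10 under each of these settings.

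**Figure D1:**
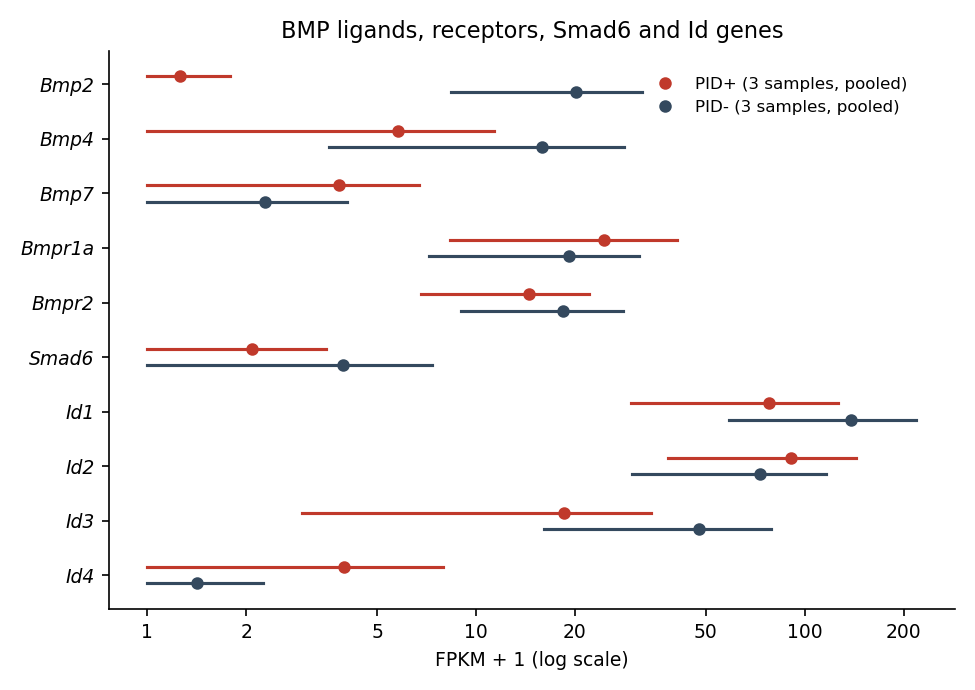
FPKM plus 1 on a log axis for the 10 BMP and Id genes in PID+ (red) and PID- cells (dark blue). Points are the pooled value of 3 samples and lines the deposited CuffDiff interval. The intervals are apart for Bmp2 alone, and the directions of Bmpr1a and Id2 turn when Gapdh is set equal.

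Bmp2 was the most abundant BMP ligand in PID- cells and near 0 in PID+ cells. Its gene (ENSMUSG00000027358.6, chr2:133552159-133562885, plus strand, build GRCm38) was at 0.26 FPKM [0 to 0.779] in PID+ and at 19.2 FPKM [7.40 to 31.03] in PID- cells. On FPKM this is 73.8-fold lower, and the log2 difference was -4.0. The reads were estimated at 60.3 in PID+ and 6084.6 in PID- cells. The annotation gives a single transcript and no overlapping gene. Of the 10 genes, Bmp2 was the lowest in PID+ cells, at percentile 25.0 of all genes above 0, whereas in PID- cells it stood at percentile 70.7 on the FPKM scale.

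Bmp4, a close relative of Bmp2 that shares its receptors, was also lower in PID+ cells, but its intervals overlapped. The gene (ENSMUSG00000021835.11, chr14:46383520-46390669, minus strand) was at 4.79 FPKM [0 to 10.3] against 14.9 FPKM [2.58 to 27.1], a log2 difference of -1.45. The ratio of the plain FPKM values was 3.10-fold, while with 1 added to both it missed the 3-fold threshold. A protein coding gene on the opposite strand overlaps Bmp4, and whether reads are shared between them was not tested. Bmp7, a ligand of the other main BMP subgroup, went the other way. It (ENSMUSG00000008999.7, chr2:172868012-172940321, minus strand) was at 2.84 FPKM [0 to 5.71] in PID+ and 1.27 FPKM [0 to 3.05] in PID- cells, a log2 difference of 0.76, with intervals that overlapped and both reached 0.

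The other ligands of the family show what made up the total. Of 14 ligand genes, 4 were listed at 0 in both conditions and 5 reached 1 FPKM in either. They summed to 19.97 FPKM in PID+ cells against 37.5 FPKM in PID- cells, 1.88-fold lower, or 2.89-fold lower with Gapdh set equal. Without Bmp2 the sums were 19.7 and 18.2, an order that turned when Gapdh was set equal. In PID- cells Bmp2 made up 51.3% of the summed FPKM and Bmp4 39.6%. In PID+ cells their shares were 1.30% and 24.0%, and the largest share, 39.9%, belonged to Bmp3, a ligand known to oppose other BMPs. Bmp3 was at 7.97 FPKM [2.42 to 13.5] against 0.377 FPKM [0 to 0.888], a log2 difference of 2.70, and its intervals did not overlap. Bmp8a was at 3.69 and 1.31 FPKM, with a log2 difference of 1.02 that was under 2-fold with equal total FPKM, at 0.95, and with equal Gapdh, at 0.59, and it overlaps another protein coding gene. The ligand total was therefore lower in PID+ cells with a different composition, the highest FPKM being that of Bmp2 in PID- cells and of Bmp3 in PID+ cells, although in each condition the interval of that gene overlapped the interval of Bmp4. The lower Bmp2 and Bmp4 stood beside the lower fibroblast markers given above, whose part in these differences was not tested.

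Transcripts of both receptors in the list were present in PID+ and PID- cells. Bmpr1a, the type I receptor that binds Bmp2 and Bmp4, (ENSMUSG00000021796.11, chr14:34410734-34503341, minus strand) was at 23.6 FPKM [7.34 to 39.9] in PID+ and 18.2 FPKM [6.20 to 30.3] in PID- cells. Its log2 difference of 0.35 became -0.24 with Gapdh set equal. Bmpr2, the type II receptor of the pathway, (ENSMUSG00000067336.6, chr1:59763400-59879014, plus strand) was at 13.4 FPKM [5.81 to 21.1] and 17.5 FPKM [7.97 to 26.9], a log2 difference of -0.35. For both receptors each value lay inside the interval of the other condition.

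Of the 7 receptor genes for BMPs, 6 reached 1 FPKM, and the sums of 71.2 and 72.9 FPKM were close. Acvr1, a further type I receptor, was at 20.8 and 27.5 FPKM, and the type II receptors Acvr2a and Acvr2b, shared with activins, were at 8.60 and 7.15 FPKM and at 3.0 and 2.05 FPKM. With Gapdh set equal, the order of Acvr2a and Acvr2b turned. Acvrl1, known best from endothelial cells, was at 1.79 FPKM in PID+ and 0.393 FPKM in PID- cells. It was the 1 receptor past 2-fold, against 6.14% of all genes tested, at a log2 difference that fell short of 2-fold with equal total FPKM (0.96), with equal Gapdh (0.72) and after subtraction of its chromosome's median (0.82). Its FPKM was below the minimum of 2 for the genes in that share. The co-receptor Rgmb was at 4.55 and 5.64 FPKM, and Eng at 1.08 and 0.507 FPKM. Tumor cells of both genotypes therefore held transcripts of type I and type II BMP receptors at similar summed FPKM as deposited, though with Gapdh set equal the sum was 1.58-fold lower in PID+ cells.

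Smad6, which inhibits BMP receptors and is itself a BMP target, was low in both conditions. The gene (ENSMUSG00000036867.7, chr9:63953076-64022059, minus strand) was at 1.08 FPKM [0 to 2.49] in PID+ and 2.95 FPKM [0 to 6.34] in PID- cells. On FPKM it was 2.74-fold lower, with a log2 difference of -0.93 and intervals that both reached 0. Smad7, the inhibitor shared with TGF-beta signaling, was far more abundant, at 25.6 and 19.8 FPKM, an order that turned with Gapdh set equal. The signal carriers Smad1 and Smad5 were at 9.92 against 17.3 FPKM and at 10.4 against 17.5 FPKM, with log2 differences of -0.75 and -0.70. Their partner Smad4 was at 38.2 and 51.4 FPKM. The ubiquitin ligase gene Smurf1 was at 50.6 and 32.2 FPKM, and Smurf2 at 24.9 and 34.3 FPKM. Of the 8 genes for Smads and these ligases, 6 were lower and 2 higher, with a median log2 difference of -0.55 and 0 past 2-fold in either direction, 7 of them having at least 2 FPKM, against 7.05% lower and 6.14% higher over all genes tested. With Gapdh set equal, 5 of them were at least 2-fold lower and the median was -1.04, where 22.1% of all genes tested were that much lower and their median was -0.59. Adding 0.1 FPKM rather than 1 put 1 of these 7, Smad6, past 2-fold lower, against 8.55%.

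Secreted antagonists bind BMPs outside the cell, and most of those expressed were lower in PID+ cells. Of 17 genes, 4 were at 0 in both conditions and 10 reached 1 FPKM, and of the 9 with at least 2 FPKM, 5 were at least 2-fold lower and 1 at least 2-fold higher, against 7.05% and 6.14% of all genes tested. Bmper, Chrd, Grem1 and Nog reached 2 FPKM only in the condition where they were higher, so these counts are a description. The median log2 difference was -0.0857 over all 17 genes and -1.16 over the 9. With Gapdh set equal 6 of the 9 were at least 2-fold lower, against 22.1%. The sums were 110.4 FPKM in PID+ and 209.8 FPKM in PID- cells, 1.90-fold lower, or 2.93-fold lower with Gapdh set equal. Bmper was at 1.06 FPKM [0 to 2.45] against 10.3 FPKM [3.21 to 17.3], a log2 difference of -2.45, and had intervals apart. Fstl1 was at 4.0 against 26.2 FPKM, a log2 difference of -2.44 that became -1.94 after subtraction of the median of its chromosome, 16. Fstl1 is known from mesenchymal cells, and the part of the lower fibroblast markers in these differences was not tested. Grem1, the stromal antagonist of the crypt base, was at 0.343 against 3.01 FPKM and Chrd, which also lies on chromosome 16, at 0.519 against 3.51 FPKM. The abundant antagonists were Fst, which binds activins more tightly than BMPs, at 39.3 against 71.1 FPKM, Nbl1 at 24.6 against 56.03 FPKM, and Twsg1 at 26.4 against 31.6 FPKM. The log2 difference of Nbl1, -1.16, became -0.84 after subtraction of the median of chromosome 4. With each chromosome's median subtracted, 4 antagonists were at least 2-fold lower, against 6.62% of all genes tested. Dand5 was at 0.888 against 1.75 FPKM. Nog, which binds Bmp2 and Bmp4, was the 1 antagonist past 2-fold in the other direction, at 2.62 FPKM [0 to 6.00] in PID+ and 0.415 FPKM [0 to 1.21] in PID- cells, and Fstl3 was at 10.6 against 5.84 FPKM. Ligand and antagonist totals were thus both lower in PID+ cells on the FPKM scale.

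**Figure D2:**
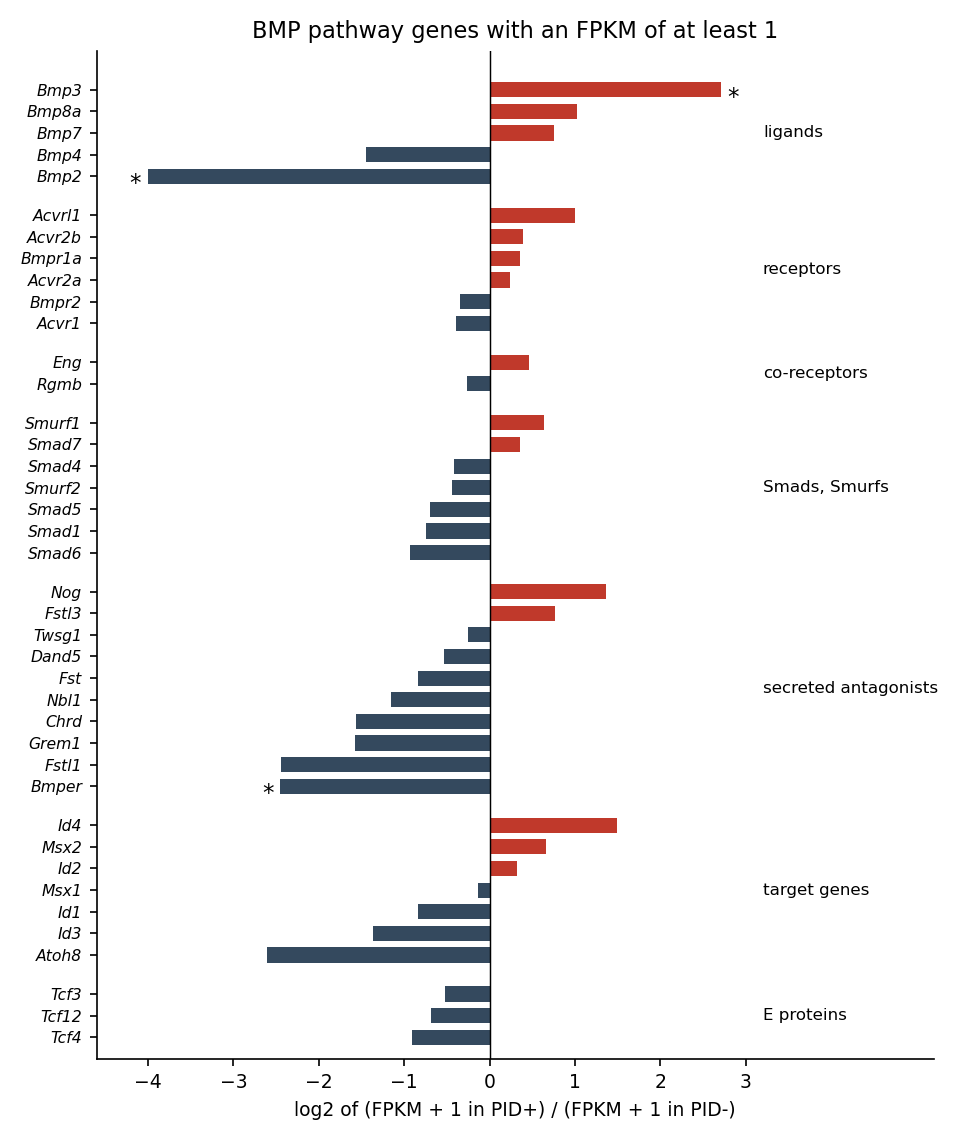
Log2 of (FPKM + 1 in PID+)/(FPKM + 1 in PID-) for the BMP pathway genes with at least 1 FPKM in either condition, 1 pooled value per condition. Red bars are higher and dark blue bars lower in PID+ cells, asterisks mark deposited intervals that do not overlap (Bmp2, Bmp3 and Bmper), and setting Gapdh equal turns Bmpr1a, Acvr2a, Acvr2b, Smad7 and Id2.

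Id1 and Id2 had the highest FPKM of the 10 in both conditions, and the 4 Id genes did not differ in a common direction. Id1, the classic early BMP target, (ENSMUSG00000042745.9, chr2:152736251-152737410, plus strand) was at 76.8 FPKM [28.6 to 125.0] in PID+ and 138 FPKM [58.03 to 218] in PID- cells, a log2 difference of -0.84. With Gapdh set equal, that difference was -1.45. Id3, often induced together with Id1, (ENSMUSG00000007872.3, chr4:136143497-136145755, plus strand) was at 17.5 FPKM [1.95 to 33.04] and 46.6 FPKM [15.1 to 78.1]. Its log2 difference of -1.36 became -1.05 after subtraction of the median of chromosome 4, -0.31. Id1 and Id3 were thus 1.8-fold and 2.66-fold lower on FPKM, with overlapping intervals.

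Id2, which answers to several pathways besides BMP, was at a similar level in both conditions. The gene (ENSMUSG00000020644.8, chr12:25093799-25097140, minus strand) was at 89.9 FPKM [37.3 to 143] in PID+ and 72.01 FPKM [28.8 to 115] in PID- cells, a log2 difference of 0.32 that became -0.30 with Gapdh set equal. Id4, the family member often expressed apart from the others, was low in both but 7.12-fold higher on FPKM in PID+ cells. It (ENSMUSG00000021379.1, chr13:48261228-48266026, plus strand) was at 2.97 FPKM [0 to 6.94] and 0.417 FPKM [0 to 1.24], a log2 difference of 1.49, with intervals that overlapped and reached 0.

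Summed over the 4 Id genes, the level was 187.2 FPKM in PID+ and 256.9 FPKM in PID- cells, 1.37-fold lower, or 2.12-fold lower with Gapdh set equal. Id1 made up 53.7% of that sum in PID- cells and 41.03% in PID+ cells, and Id2 28.03% and 48.03%. Id3 went with Id1, at 18.1% in PID- and 9.35% in PID+ cells, and Id4 stayed below both, at 0.162% and 1.59%. The most abundant Id transcript was Id1 in PID- cells and Id2 in PID+ cells, although in each condition the intervals of Id1 and Id2 overlapped.

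Other BMP targets gave no common direction either. Atoh8 was at 0.0943 FPKM [0 to 0.285] in PID+ and 5.69 FPKM [0.280 to 11.1] in PID- cells, 60.3-fold lower on FPKM, with bounds that just overlapped. Its reads were estimated at 14 in PID+ and 1158.5 in PID- cells. The homeobox genes Msx1 and Msx2 were at 2.67 and 3.03 FPKM and at 3.19 and 1.65 FPKM. The E proteins that Id proteins bind were lower in PID+ cells for all 3 genes, Tcf3 at 28.3 and 41.02 FPKM, Tcf4 at 19.7 and 37.97 FPKM, and Tcf12 at 36.2 and 58.6 FPKM. Their median log2 difference was -0.68, with 0 of 3 past 2-fold as deposited, against 7.05% lower and 6.14% higher over all genes tested. With equal total FPKM 1 (Tcf4) was at least 2-fold lower, against 8.42%, and with Gapdh set equal 3 were, against 22.1%. Over the 52 pathway genes outside the list of 10, 4 were at least 2-fold higher and 6 at least 2-fold lower. Of the 52, 27 had the 2 FPKM asked of the genes tested, 3 of them at least 2-fold higher and 6 lower, against 6.14% and 7.05%, and with Gapdh set equal 2 and 14, against 2.44% and 22.1%. A gene with 2 FPKM in a single condition enters such a count through that condition, so the counts are a description. Their median log2 difference was -0.0041 over all 52, of which 8 were at 0 in both conditions, and -0.42 over the 27 with at least 2 FPKM.

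Ranked on FPKM, the order in PID+ cells was Id2, Id1, Bmpr1a, Id3, Bmpr2, Bmp4, Id4, Bmp7, Smad6 and Bmp2. In PID- cells it was Id1, Id2, Id3, Bmp2, Bmpr1a, Bmpr2, Bmp4, Smad6, Bmp7 and Id4. In both orders the intervals of every pair of neighbors overlapped, so that neighboring ranks did not differ beyond their intervals. The half-widths of the intervals ranged from 56.8% to 199% of the FPKM in PID+ cells and from 54.3% to 197% in PID- cells. By position, Bmp2, Bmp7 and Id1 lie on chromosome 2, where the median log2 difference was 0.08, and Bmp4 and Bmpr1a on chromosome 14, where it was 0.25. On chromosome 2, Bmp2 and Id1 were lower and Bmp7 higher in PID+ cells, so that the 3 genes did not share a direction.

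Promoter sequences are shown for the Id genes because Id3 was lower and Id4 higher in PID+ cells. RefSeq windows (build GRCm38.p6) of 250 bases before to 50 bases after the start were held for 7 of the 10 genes, Bmp4, Bmpr1a, Bmpr2, Smad6, Id2, Id3 and Id4. They were searched on both strands for GGCGCC, a GC-rich element of the kind bound by the Smads of the BMP pathway and the same on either strand, and for CAGAC, the Smad box, which reads GTCTG on the other strand. The motifs can share at most 1 base. GGCGCC occurred in 4 of the 7 windows, Bmpr1a, Bmpr2, Id2 and Id4, against 11.9% of 32851 RefSeq windows of the same length, and CAGAC in 1, Id3, against 49.6%. These letters are a description of the windows, and were chosen with the expression values known. Capitals mark GGCGCC 231 bases before the start in Id2 (chr12:25096043-25096342, minus strand) and 148 bases before it in Id4 (chr13:48260866-48261165, plus strand). The start is that of RefSeq, and the windows of Id2 and Id3 lie inside the Gencode gene bounds given above, so that these bases are not upstream of every annotated start. In Id3 (chr4:136143572-136143871, plus strand) capitals mark CAGAC 167 bases and GTCTG 68 bases before the start. GC content was 63.3% for Id2, 60.0% for Id3 and 73.3% for Id4, with a median of 52.7% over all windows. Over the 7 windows it ran from 59.3% (Bmpr2) to 79.3% (Bmpr1a), above that median in each. The share of 11.9% was not matched for GC content, so the count of GGCGCC cannot be read as an excess.
Id2: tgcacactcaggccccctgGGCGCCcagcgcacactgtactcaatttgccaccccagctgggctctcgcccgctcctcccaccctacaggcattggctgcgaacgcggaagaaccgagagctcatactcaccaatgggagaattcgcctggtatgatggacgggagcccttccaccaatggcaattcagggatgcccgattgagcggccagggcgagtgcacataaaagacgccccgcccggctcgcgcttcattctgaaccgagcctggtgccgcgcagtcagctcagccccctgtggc
Id3: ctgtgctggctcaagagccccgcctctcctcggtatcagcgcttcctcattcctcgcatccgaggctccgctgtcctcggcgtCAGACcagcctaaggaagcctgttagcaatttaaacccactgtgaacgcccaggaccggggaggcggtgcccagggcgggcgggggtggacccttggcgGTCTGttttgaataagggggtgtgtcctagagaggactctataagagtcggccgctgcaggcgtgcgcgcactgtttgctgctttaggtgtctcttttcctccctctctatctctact
Id4: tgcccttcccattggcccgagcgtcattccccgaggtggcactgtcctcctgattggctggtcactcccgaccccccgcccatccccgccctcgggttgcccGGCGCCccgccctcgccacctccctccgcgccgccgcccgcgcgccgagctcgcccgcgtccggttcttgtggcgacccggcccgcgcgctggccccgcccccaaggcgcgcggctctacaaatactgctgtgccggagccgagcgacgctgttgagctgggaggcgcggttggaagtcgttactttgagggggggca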

How the data were processed

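RNA-seq of 6 samples, 3 PID+ and 3 PID-, was used. The authors trimmed adapters, ran TopHat against GRCm38.p3 using protein coding annotation, merged reads by condition, and deposited FPKM from CuffDiff with interval bounds. The entries named treated were taken as PID+ and those named untreated as PID-, from the labels. Of 21966 genes, 7 with a status other than OK were left out. A planned test on counts was not run, since the values are pooled FPKM. Log2 differences used a pseudocount of 1, and shares of all genes used those with at least 2 FPKM in either condition. The 10 genes and the lists were chosen with earlier results of these data known. Named genes are the 10 and the listed pathway genes with at least 1 FPKM in either condition. Markers and Gapdh were named beside them. Positions came from Gencode M21 (GRCm38). The log2 calculation, the 3-fold calls and the read estimate were run on simulated data, which checks the code and not the certainty of the values. Python 3.11.15, numpy 2.4.6, pandas 2.3.3 and matplotlib 3.10.9 were used.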

Additional observations from a re-analysis of the deposited data

How the results depend on the processing

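The alternatives were scaling to equal Gapdh, to equal upper quartiles or to equal total FPKM, a pseudocount of 0.1, subtraction of each chromosome's median, a mean FPKM of at least 5, and intervals that do not overlap. Of the 10 genes, 8 kept their direction in each that gave a log2 value, which the last does not. With a pseudocount of 0.1, 2 genes were at least 2-fold higher and 4 lower, against 7.45% and 8.55% of all genes, and 1 at least 3-fold higher and 2 lower, against 3.23% and 4.59%. Equal Gapdh moved the median of the 10 from -0.59 to -1.13 and that of all genes tested from -0.01 to -0.59. With it, 5 genes were at least 2-fold lower and 3 at least 3-fold lower, against 22.1% and 6.5% of all genes, Bmpr1a turned to -0.24, Id2 to -0.30 and the median of the receptors to -0.24. Equal total FPKM moved the median of all genes to -0.10. Subtracting chromosome medians left 1 gene at least 3-fold higher and 2 lower, against 2.03% and 3.44%. A mean FPKM of at least 5 removed Bmp7, Smad6 and Id4, so that 0 were at least 2-fold higher, against 5.01%. With fewer genes the ligand median went from 0.0020 to -2.73, the receptor median from 0.24 to -0.0582 and the antagonist median from -0.09 to -0.999. Requiring intervals apart left 0 at least 2-fold higher and 1 lower, against 0.362% and 1.07%. Leaving out single samples was not possible, because the values are pooled. The cause of the other shifts was not tested.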
